A study of Mus musculus with 15 samples.

Results

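Nuclear receptors are transcription factors that sense small lipid-soluble molecules, and coregulators are the proteins they recruit to turn transcription up or down. The genes described here are 30 nuclear receptor genes and 7 coregulator genes, 37 in all, out of 24965 genes in a liver RNA sequencing comparison. They were chosen by gene symbol, and each symbol stood on 1 row of the authors' deposited table. Of the 37, 32 were abundant enough to carry an adjusted p, out of 13335 such genes, which are called tested genes here.

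The livers came from male C57BL/6J mice of 9 weeks of age, and all animals, controls included, carried floxed alleles of the transcription factor gene Gata4 (Gata4fl/fl). At 8 weeks they received an adeno-associated virus of serotype 8. Knockout animals (Gata4LKO) received AAV8-Tbg-Cre, in which the Tbg promoter, active in hepatocytes, drives the Cre recombinase. Control animals received an empty AAV8, so that the presence of Cre coincided with the genotype label and the effect of each cannot be told apart. Livers were taken 7 days after injection. There were 4 fasted knockout and 4 fasted control livers, taken after a 12 h fast, and 3 refed knockout and 4 refed control livers, taken after a 12 h fast and 12 h of access to food that was 69% sucrose and 10% fat. The labels place the end of every experiment in the same hour of the morning. They do not say whether animals of a group shared a cage or litter. The titles of each group share a number that differs between groups and is not explained. What that number marks therefore cannot be told apart from the genotype label. The p-values measure only the spread between these livers within their groups.

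As background, most of these receptors bind DNA through a zinc finger domain, either alone or with a retinoid X receptor as partner, and change their coregulators when a ligand binds. In liver, HNF4 alpha maintains hepatocyte gene expression, the liver X receptors respond to oxysterols, and the farnesoid X receptor responds to bile acids. The coactivators of the NCOA family and the Mediator subunit MED1 link bound receptors to transcription, whereas NCOR1 and RIP140 (the product of Nrip1) can hold it back.

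The deposited values are 1 log2 fold change per gene, knockout minus control in fasted livers, with its standard error, and a mean over all 15 libraries. The table analysed holds no values per liver, so no level can be given for a single group, and the refed livers enter only through that mean and through the spread. The size factors that could be worked out for the 15 libraries lay between 0.912 and 1.11. The direction of every change rests on a reading of the table that is given with its processing. Gata4 itself had a log2 fold change of 0.31 ± 0.15 (SE), per the authors' deposited table, with an adjusted p of 0.361, so the targeted gene was not lower in livers labelled knockout. The labels do not name the floxed exons, and a gene-wide count is no check on a deletion of some of them.

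GATA4, the protein that the knockout was designed to remove, binds the core letters GATA, so the start regions of the members were searched for them. The search took the words AGATAA or AGATAG, and likewise TGATAA or TGATAG, on both strands, in windows from 250 bases before to 50 bases after each RefSeq start (GRCm38.p6, the mm10 assembly). Windows were found for 33 of the 37 members. A match stood in 13 of their 54 windows (24.1%), belonging to 11 members, against 29.8% of all 32851 windows of that length. The 250 bases before the start are printed for 4 genes of lipid and bile acid control whose windows held a match, since they show what such a sequence looks like in receptor genes whose RNA did not pass the test. They were chosen after the matches were seen. Capitals mark the matches, which on the opposite strand read as TTATCT or TTATCA.
Hnf4a: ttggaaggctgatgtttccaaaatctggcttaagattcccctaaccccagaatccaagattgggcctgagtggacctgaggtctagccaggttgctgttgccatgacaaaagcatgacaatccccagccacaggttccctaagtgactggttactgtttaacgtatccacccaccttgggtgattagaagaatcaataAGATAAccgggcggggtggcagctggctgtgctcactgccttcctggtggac
Nr5a2: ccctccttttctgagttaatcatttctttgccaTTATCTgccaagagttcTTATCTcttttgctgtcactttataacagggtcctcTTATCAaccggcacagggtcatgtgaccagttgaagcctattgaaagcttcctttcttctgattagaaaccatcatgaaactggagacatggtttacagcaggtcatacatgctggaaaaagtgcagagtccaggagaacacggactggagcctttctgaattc
Nr1h4: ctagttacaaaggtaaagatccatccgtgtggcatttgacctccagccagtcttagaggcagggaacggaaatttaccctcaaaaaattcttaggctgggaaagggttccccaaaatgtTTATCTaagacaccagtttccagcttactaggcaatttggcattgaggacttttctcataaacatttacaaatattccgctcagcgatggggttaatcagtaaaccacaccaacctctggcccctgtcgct
Nr0b2: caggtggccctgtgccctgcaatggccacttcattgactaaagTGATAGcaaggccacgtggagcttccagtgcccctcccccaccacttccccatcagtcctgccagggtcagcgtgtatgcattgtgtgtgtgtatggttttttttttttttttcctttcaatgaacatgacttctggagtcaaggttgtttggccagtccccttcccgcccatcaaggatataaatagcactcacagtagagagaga

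The Hnf4a stretch is chr2:163506607-163506856 (forward strand), and its match begins 52 bases before the start. The other Hnf4a window, at the downstream start (chr2:163546905-163547204), held 0 matches. The Nr5a2 stretch is chr1:136960449-136960698 (reverse strand), with matches that begin 217, 200 and 164 bases before the start, and 1.76% of all windows held 3 or more. A second Nr5a2 window held 1 match, 5 bases before its start. The Nr1h4 stretch is chr10:89506659-89506908 (reverse strand), with a match 131 bases before the start. That RefSeq start lies inside the gene as annotated in GENCODE M21 (89454234 to 89533585), and no other Nr1h4 window was searched. The Nr0b2 stretch is chr4:133553126-133553375 (forward strand), with a match 207 bases before the start, and its window held another match 13 bases after the start. A match is a description of these letters and not a site of binding. Among tested members with a match (10 genes) the log2 fold changes that the authors' deposited table gives ran from -0.41 to 0.24, with a median of 0.07. Among the 19 tested members whose windows held none, they ran from -0.87 to 0.34, with a median of 0.01.

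None of the 32 tested members passed the threshold of an adjusted p under 0.05 (DESeq2 Wald test by the authors, adjusted by the Benjamini-Hochberg method), so 0 were called higher and 0 lower. The background over all tested genes in the authors' deposited table was 2.19%, or 292 genes, of which 78 were higher (0.585%) and 214 lower (1.60%). A count of 0 among 32 genes stands near that background. At an unadjusted p under 0.05 the count was 0 of 32 by the same test, against 11.4% of all tested genes. The smallest unadjusted p of a member was 0.0887, for Nr2f1, and the smallest adjusted p was 0.543 for the same gene. Estimates were positive for 19 members and negative for 13, with a median log2 fold change of 0.02, against 0.01 over all tested genes.

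A missed threshold does not show that levels were equal, so the intervals matter more than the p-values here. From the authors' deposited table, 95% intervals of 25 of the 32 members lay wholly within a 1.5-fold change either way (78.1%, against 65.8% of all tested genes), and those of 30 lay within a 2-fold change. The members are more abundant than most genes, with a median mean of 479 normalized counts against 236. Among genes with a mean of at least 100, the share within 1.5-fold was 85.2% for 27 members and 89.0% for all tested genes, so that this precision is not particular to the receptors. The members of that abundance had a median absolute log2 fold change of 0.09, and so had all tested genes of that abundance. The 7 tested members with wider intervals than 1.5-fold were Nr2f1, Nr4a1, Nr0b2, Esrrg, Ppargc1b, Nr6a1 and Ppard.

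The size of change that would have passed can be read from each standard error, since the weakest called gene in the authors' deposited table had an unadjusted p of 0.00108. That size was a log2 change of 0.18 for Ncor1, the most precise member, and 1.67 for Nr2f1, the least precise tested member, with a median of 0.39. It was below a 1.5-fold change for 23 of the 32 tested members and below a 2-fold change for 30.

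**Figure D1:**
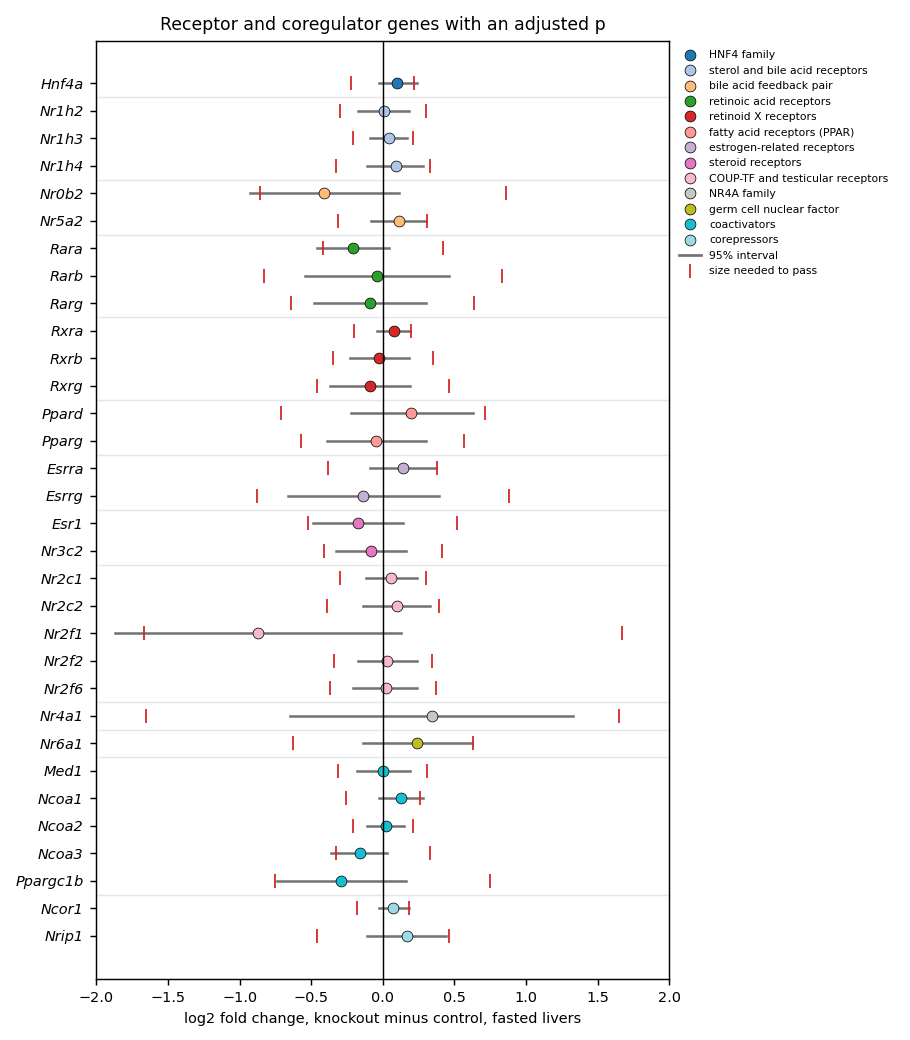
Log2 fold change (x axis, knockout minus control in fasted livers) of the 32 receptor and coregulator genes with an adjusted p, grouped by role down the y axis. Points are the authors' estimates, grey lines the 95% intervals and red ticks the size that would have passed the test. Every point lies inside its red ticks, and the widest lines are those of Nr2f1 and Nr4a1.

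Levels spanned more than 4 orders of magnitude, from Hnf4a down to Vdr. Compared per kilobase of exon, as mean normalized counts over all libraries divided by the length of the gene's merged exons, 19 of the 32 tested members stood above the median of all tested genes, which was 54.2 per kb. Hnf4a led with 2476 per kb (97.9th percentile of tested genes), followed by Nr1h4 with 1229, Rxra with 1190 and Nr1h3 with 471. At the other end stood Hnf4g with 1.63, Nr2f1 with 1.62, Esrrb with 1.3, Nr4a2 with 1.05, Nr4a3 with 0.303 and Vdr with 0.21 per kb. The spread of these levels between livers cannot be computed from a mean alone, and so it is not known whether close neighbours in this order, such as Nr1h4 and Rxra, differ.

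**Figure D2:**
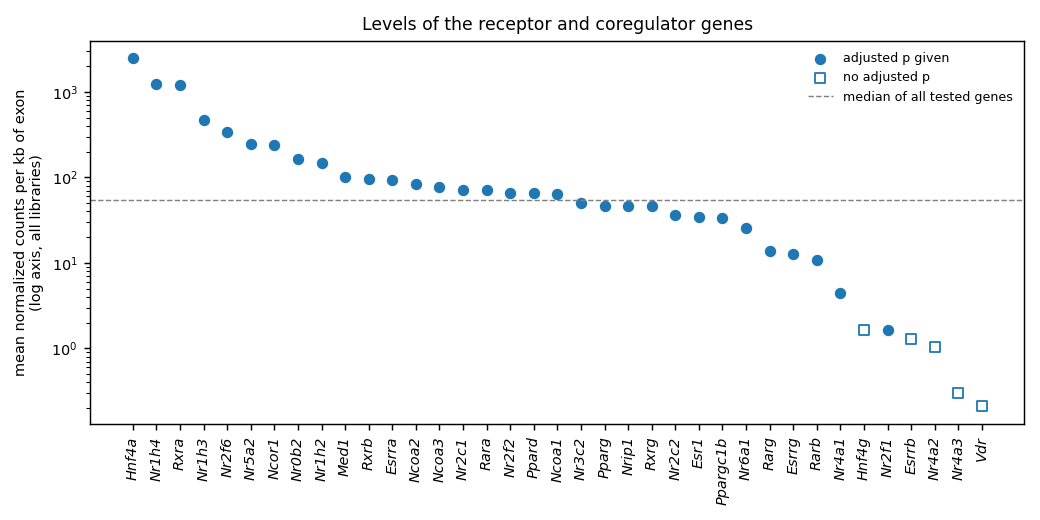
Mean normalized counts per kilobase of merged exon (y axis, log scale, mean over all libraries) for the 37 genes in falling order. Filled circles are genes with an adjusted p and open squares are genes with none, and the dashed line is the median of all tested genes at 54.2 per kb. Hnf4a, Nr1h4 and Rxra lie above 1000 per kb.

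The HNF4 receptors bind DNA as homodimers and act without an exchange of ligand. Hnf4a (ENSMUSG00000017950, chromosome 2, 163506808 to 163572910, mm10) averaged 11952.2 normalized counts in the authors' deposited table, the highest of all members. Its log2 fold change there was 0.10 ± 0.07 (SE), with a 95% interval from -0.03 to 0.24 and an adjusted p of 0.638. In linear terms the interval ran from 0.977-fold to 1.18-fold, and a log2 change of 0.22 would have passed. Its relative Hnf4g, which is known mainly from gut, averaged a mere 4.29 normalized counts in the authors' deposited table and had no adjusted p, and its estimate of 0.69 ± 0.89 (SE) leaves room for changes in either direction.

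Genes of the sterol and bile acid sensors were among the most precisely measured, and each of their estimates lay within 0.1 of 0 on the log2 scale. Nr1h3 encodes LXR alpha, the oxysterol receptor of hepatocytes (ENSMUSG00000002108, chromosome 2, 91184061 to 91202834), and had a log2 fold change of 0.04 ± 0.07 (SE), per the authors' deposited table, with an interval from -0.09 to 0.17. Nr1h2, which encodes the widely expressed LXR beta, had 0.01 ± 0.09 (SE), per the authors' deposited table, from -0.17 to 0.18. Nr1h4, the farnesoid X receptor gene for bile acids (ENSMUSG00000047638, chromosome 10, 89454234 to 89533585), had 0.09 ± 0.10 (SE), per the authors' deposited table, from -0.11 to 0.28. A 1.5-fold change either way lies outside all 3 intervals.

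Nr0b2 and Nr5a2 form the arm by which bile acids restrain their own synthesis. Nr0b2 encodes SHP, a receptor without a DNA-binding domain that the farnesoid X receptor induces and that represses other receptors (ENSMUSG00000037583, chromosome 4, 133553376 to 133556536). Its log2 fold change of -0.41 ± 0.26 (SE), per the authors' deposited table was the most negative among members with a mean of at least 100, but it did not pass, with an adjusted p of 0.606. The interval, from -0.93 to 0.11, includes both no change and a fall to 0.526-fold. Nr5a2 encodes LRH-1, which SHP represses and which activates bile acid synthesis genes, and had 0.11 ± 0.10 (SE), per the authors' deposited table, from -0.08 to 0.30.

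Standard errors also carry the spread between livers that the authors' model assigned to each gene. For 4 livers in each group at about equal level, they correspond to a coefficient of variation between livers of 24.8% for Nr0b2, against 9.04% for Nr5a2 and 9.6% for Nr1h4. Over the 32 tested members this value ran from 4.94% for Ncor1 to 42.5% for Nr4a1, with a median of 10.6%. The highest values among members with a mean of at least 100 belonged to Nr0b2, then Ppard and Ppargc1b at 20.8% each. These are approximations, since the model shares its estimate of spread over all 4 groups.

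Retinoic acid receptors all had small negative estimates that did not pass. They bind retinoic acid and pair with retinoid X receptors. Rara had a log2 fold change of -0.21 ± 0.13 (SE), per the authors' deposited table, with an interval from -0.46 to 0.04 and an adjusted p of 0.568. Rarg had -0.09 ± 0.20 (SE) and Rarb -0.04 ± 0.25 (SE), per the authors' deposited table, at means of only 58.3 and 57.5 normalized counts.

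Retinoid X receptors are the common partners of the LXR, FXR, PPAR and RAR proteins, so their level bears on many of the other members. Rxra, the main liver form (ENSMUSG00000015846, chromosome 2, 27676440 to 27762957), averaged 6499.0 normalized counts and had a log2 fold change of 0.08 ± 0.06 (SE), per the authors' deposited table. Its interval, from 0.97-fold to 1.14-fold, was among the narrowest. Rxrb had -0.03 ± 0.11 (SE) and Rxrg -0.09 ± 0.14 (SE), per the authors' deposited table. Vdr, the vitamin D receptor, was close to the detection limit, with a mean of 1.19 normalized counts. Its estimate of 2.73 ± 1.72 (SE), per the authors' deposited table had an interval from -0.64 to 6.09, and it carried no adjusted p.

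Fatty acid and energy receptors showed the same picture with wider intervals. Ppard, a widely expressed fatty acid receptor, had a log2 fold change of 0.20 ± 0.22 (SE), per the authors' deposited table. Pparg, the receptor that drives fat storage and is highest in adipose tissue, had -0.05 ± 0.17 (SE), per the authors' deposited table, from -0.39 to 0.30. The adipocyte marker Cfd, in contrast, rose by 3.20 ± 0.96 (SE) on the log2 scale in the authors' deposited table, where it averaged only 9.36 normalized counts. It was the only gene called of 2 tested adipocyte markers. The other, Fabp4, had 0.67 ± 0.29 (SE) at a mean of 80.5 normalized counts. Its unadjusted p was 0.0202 (authors' DESeq2 Wald test), and it did not pass. Adipoq and Plin1 had means of 2.43 and 0.588 normalized counts and were not tested. Their estimates, and those of the untested markers Lep and Retn, were also positive, with intervals that included 0. Cfd was not called once genes of low abundance entered the adjustment. The part of these markers in the Pparg value was not tested.

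Estrogen-related receptors, which have no known natural hormone and act with the PGC1 coactivators on mitochondrial genes, had estimates of either sign. Esrra had 0.14 ± 0.12 (SE), per the authors' deposited table, from -0.09 to 0.37. Esrrg had -0.14 ± 0.27 (SE), per the authors' deposited table, from -0.66 to 0.39, and Esrrb, at a mean of 7.86 normalized counts, had no adjusted p.

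Steroid receptors had negative estimates within the error. Esr1, the estrogen receptor alpha gene, had a log2 fold change of -0.17 ± 0.16 (SE), and Nr3c2, the mineralocorticoid receptor gene, had -0.08 ± 0.13 (SE), per the authors' deposited table. Both intervals lay within a 1.5-fold change.

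The COUP-TF and testicular receptors are orphan receptors that often compete for sites of other receptors. Nr2f6 and Nr2f2 (COUP-TFII) had 0.02 ± 0.11 and 0.03 ± 0.10 (SE), per the authors' deposited table, and Nr2c1 and Nr2c2 had 0.06 ± 0.09 and 0.10 ± 0.12 (SE). The exception in size was Nr2f1 (COUP-TFI), at -0.87 ± 0.51 (SE), per the authors' deposited table, with an interval from -1.87 to 0.13. Its mean of 8.24 normalized counts lay just above the lowest mean of a tested gene, 8.2, and the adjusted p was 0.543. It is the member with the smallest p and also the one with the fewest reads among those tested.

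NR4A receptors are immediate early genes that respond to signals rather than to a ligand, and they were scarce. Nr4a1 averaged 15.7 normalized counts and had a log2 fold change of 0.34 ± 0.50 (SE), per the authors' deposited table. Nr4a2 and Nr4a3 had means of 4.25 and 1.81 normalized counts and no adjusted p. Nr6a1, the germ cell nuclear factor gene, had 0.24 ± 0.19 (SE), per the authors' deposited table, from -0.14 to 0.62.

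Of the 7 coregulator genes 0 were called, and their standard errors ran from 0.05 for Ncor1 to 0.23 for Ppargc1b on the log2 scale. Among coactivators of the p160 family, Ncoa1 had a log2 fold change of 0.13 ± 0.08 (SE), Ncoa2 0.02 ± 0.07 (SE) and Ncoa3 -0.16 ± 0.10 (SE), per the authors' deposited table. The unadjusted p of Ncoa1 and Ncoa3 were 0.105 and 0.0995, and their estimates pointed in opposite directions. Whether Ncoa1 and Ncoa3 differed from each other was not tested, since that needs values per liver. Med1, the Mediator subunit that contacts receptors, had 0.00 ± 0.09 (SE), per the authors' deposited table. Ppargc1b, which encodes PGC1 beta, had -0.29 ± 0.23 (SE), per the authors' deposited table, with an interval from -0.74 to 0.16.

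Of the corepressors, Ncor1 (ENSMUSG00000018501, chromosome 11, 62316426 to 62458541) had 0.07 ± 0.05 (SE), per the authors' deposited table, with an interval from 0.977-fold to 1.13-fold. Nrip1 had 0.17 ± 0.14 (SE), per the authors' deposited table, from -0.11 to 0.44.

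**Figure D3:**
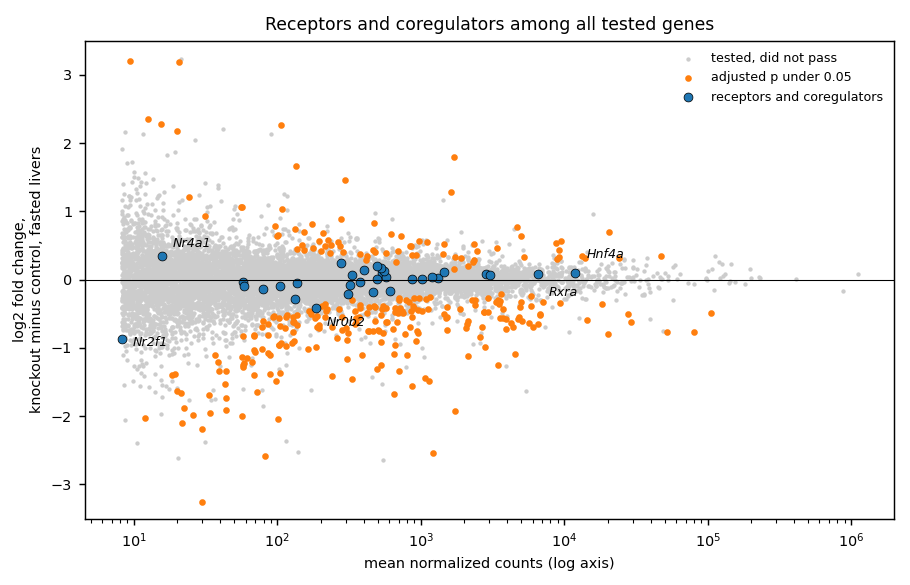
Log2 fold change (y axis, knockout minus control in fasted livers) against mean normalized counts over all libraries (x axis, log scale) for tested genes. Grey points did not pass, orange points had an adjusted p under 0.05 and blue points are the 32 tested receptors and coregulators. The blue points stay in the grey cloud, and 7 tested genes beyond a log2 fold change of 3.5 either way are outside the axis.

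The rest of the receptor family gave the same count. Of 19 other mouse receptor genes, 12 were tested and 0 passed by the authors' DESeq2 Wald test, with 1 at an unadjusted p under 0.05. Ppara, the fasting fatty acid receptor, had 0.17 ± 0.12 (SE), and the xenobiotic receptors Nr1i2 and Nr1i3 had 0.14 ± 0.13 and 0.06 ± 0.13 (SE), per the authors' deposited table. The glucocorticoid receptor gene Nr3c1 and the thyroid hormone receptor gene Thrb had 0.01 ± 0.08 (SE) each in the authors' deposited table. The median of the 12 was 0.02.

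Among 32 other coregulator genes, all tested, 1 fell, 0 rose and 31 did not pass, with a median log2 fold change of 0.02. An unadjusted p under 0.05 was reached by 5 of them in the authors' DESeq2 Wald test. Over all tested genes 2.19% were called and 11.4% had an unadjusted p under 0.05. The gene that fell was Zfpm1, which encodes FOG1, a cofactor of GATA proteins, at -0.72 ± 0.16 (SE) and an adjusted p of 0.000848 in the authors' deposited table. Ppargc1a, the fasting-induced PGC1 alpha gene, had 0.26 ± 0.41 (SE), per the authors' deposited table, and its interval ran from -0.55 to 1.08.

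Some target genes of the same receptors were called, each of them lower in livers labelled knockout. The lists were drawn up with earlier results of these data known, and their counts stand beside a background of 2.19% called, with 214 of the 292 calls lower. With a t distribution of 11 residual degrees of freedom in place of the normal, 2 of the 15 distinct called genes of all lists passed, namely Abcg5 and Otc. When the adjustment also took in the genes of low abundance, the calls of Srebf1 and Fabp1 ended. Of 16 tested LXR targets 5 fell, 0 rose and 11 did not pass, with a median log2 fold change of -0.05. The sterol exporter genes Abcg5 and Abcg8 had -0.96 ± 0.15 and -0.77 ± 0.18 (SE), and Abca1 had -0.33 ± 0.07 (SE), per the authors' deposited table. Fasn had -0.77 ± 0.18 (SE), per the authors' deposited table, and the fifth gene, Srebf1, named after its value was seen, had -0.72 ± 0.21 (SE). The intervals of Abcg5, Abcg8 and Abca1 had upper ends of -0.66, -0.43 and -0.19. These genes were named because they were called, so intervals that leave out 0 follow from that choice. The intervals of Nr1h3 and Nr1h2, which were not called, included 0. The difference between a receptor gene and its targets was not tested.

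Of 8 tested LRH-1 targets 3 fell and 5 did not pass, with a median of -0.22. Abcg5 and Abcg8 are 2 of those 3 and belong to the LXR list as well, and the third is the apolipoprotein gene Apoa1, at -0.48 ± 0.11 (SE), per the authors' deposited table. Of 15 tested FXR targets 1 fell and 14 did not pass, with a median of -0.01. It was Baat, which joins bile acids to amino acids, at -0.55 ± 0.10 (SE), per the authors' deposited table. Of 18 tested HNF4A targets 2 fell and 16 did not pass, with a median of 0.00. These were the urea cycle gene Otc, at -0.70 ± 0.08 (SE), and Cyp2d22, at -0.36 ± 0.08 (SE), per the authors' deposited table.

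Other target lists had 1 call or 0. Of 19 tested PPAR targets 1 fell and 18 did not pass, with a median of 0.04; it was the fatty acid binding gene Fabp1, at -0.50 ± 0.14 (SE), per the authors' deposited table. Of 13 tested retinoid genes, of retinoic acid response and retinoid metabolism, 1 fell and 12 did not pass, with a median of 0.01. It was the aldehyde dehydrogenase gene Aldh1a7, at -0.44 ± 0.12 (SE), per the authors' deposited table. Of 15 tested ERR and PGC1 targets 0 passed by the authors' DESeq2 Wald test, with 1 at an unadjusted p under 0.05 and a median of -0.01. Enzymes that make oxysterols and bile acids, which supply ligands to LXR and FXR, had 2 falls among 12 tested and a median of -0.13. These were Baat again and Cyp2c70, a mouse bile acid hydroxylase, at -0.65 ± 0.17 (SE), per the authors' deposited table. An unadjusted p under 0.05 (authors' DESeq2 Wald test) was reached by 6 PPAR, 5 LXR, 5 HNF4A and 3 LRH-1 targets. It was also reached by 2 FXR targets, 2 retinoid genes and 3 of the enzymes, against 11.4% of all tested genes. Those of the PPAR list and those of the HNF4A list had estimates of both signs.

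**Figure D4:**
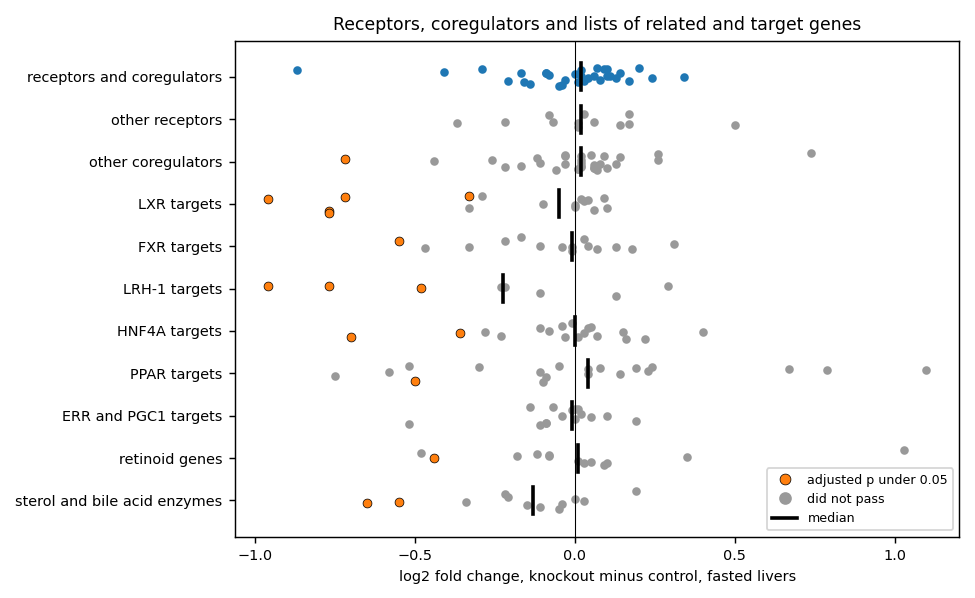
Log2 fold change (x axis, knockout minus control in fasted livers) of tested genes in the receptor and coregulator set and in 10 lists of related genes (y axis). Orange points had an adjusted p under 0.05, other points did not pass, and black bars are medians. The set itself, in blue, has 0 orange points, and those of the other lists all lie left of 0.

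Markers of other cell types were looked at because several members are also expressed outside hepatocytes, and in bulk liver fewer cells of a type and less RNA per cell cannot be told apart. Of 12 Kupffer cell markers 0 passed by the authors' DESeq2 Wald test, 2 reached an unadjusted p under 0.05, and all 12 estimates were negative, with a median of -0.27 and a range from -0.54 to -0.04. Of 12 endothelial markers 0 were called by that test and 4 reached an unadjusted p under 0.05, with 9 positive estimates and a median of 0.19. Of 12 stellate cell markers 0 were called, with 1 at an unadjusted p under 0.05 by that test and a median of 0.11. Cholangiocyte markers had 4 tested and 0 called by that test, with 0 at an unadjusted p under 0.05. The 1 lymphocyte marker tested had -1.10 ± 0.55 (SE) at a mean of only 8.44 normalized counts. It was not called, with an unadjusted p of 0.0458 by that test. Over all tested genes 11.4% had an unadjusted p under 0.05. Of 10 hepatocyte markers 1 fell, Apoa1, and the median was 0.08. Of 5 tested red blood cell genes 1 fell, the heme synthesis gene Alas2, with -0.41 ± 0.12 (SE), per the authors' deposited table, which was not called once genes of low abundance entered the adjustment. The other 4 red blood cell genes did not pass. Estimates of the 5 were positive for 2 and negative for 3, with a median of -0.03. The part of these markers in the members' values was not tested.

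Some members share exonic bases with another gene, and the strand setting of the counting is not given in the sources used here. In the GENCODE M21 annotation (GRCm38), 10 of 37 members overlap exons of a gene on the opposite strand. The overlap covers 54.4% of the merged exon length of Nr2f6 (with Ocel1), 34.1% of Rarb (with Top2b) and 30.7% of Nr2c2 (with Mrps25), and under 10% of each of the other 7. Values of Nr2f6, Rarb and Nr2c2 are uncertain for that reason, and a share of exon length does not bound a share of reads. Mean normalized counts were 123 for Ocel1 against 1017.6 for Nr2f6, and 171 for Mrps25 against 535.5 for Nr2c2. For Top2b the mean was 1170, against 57.5 for Rarb. The partner genes had log2 fold changes of 0.18 ± 0.20 for Ocel1, 0.00 ± 0.09 for Top2b and 0.02 ± 0.13 (SE) for Mrps25 in the authors' deposited table, and none was called.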

How the data were processed

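Per the labels' protocols, TRIzol and RNeasy columns yielded total liver RNA, from which stranded KAPA libraries were prepared. FastQC, STAR 2.6.0c, mm10 and DESeq2 are named in the submitters' processing notes, while the counter, its strand setting and the annotation are not given in them. The deposited file is a table of 24965 genes without values per sample, and it was not refitted. Per the file headers, it gives a mean expression signal (counts divided by size factors and averaged by the authors), a log2 fold change by the authors with its standard error, a Wald score by the authors, and p-values with adjusted p by the authors. An own Benjamini-Hochberg adjustment over the 13335 genes with an adjusted p gave the deposited values. Of the other genes, 11605 carry a p alone, 5 members among them.

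The table is named for genotype and its header states no groups. Genes with a single read, whose means repeat over genes, were fitted with a negative binomial model under 28 readings of the table. Of these, 2 gave the deposited values within 1e-06 on the log2 scale, and the next differed by 4.37e-05. Those next readings were the same contrasts with the sign reversed, so the direction of every change rests on that small difference. Under control minus knockout in fasted livers, Gata4 would be lower in livers labelled knockout. The 2 readings within 1e-06 both have fasted control livers as the base of an interaction model over all 15 libraries. One is knockout minus control in fasted livers, the other refed minus fasted in control livers. The first was taken from the table's name, and every direction rests on it. Under the second, Fasn and Srebf1, which refeeding is known to raise, would be lower after refeeding.

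Intervals are the estimate ± 1.96 standard errors and cover the error of the authors' model only. Genes were located in GENCODE M21 and promoters taken from RefSeq. Scripts ran in Python 3.11.15 with SciPy 1.17.1 and were tested on simulated data. All 37 members are named, with up to 4 called genes of smallest p per list and 8 further genes fixed by name, except genes that are not reported here. The members and lists were chosen with earlier results of these data known. Alternatives changed the genes adjusted over, the reference distribution, the centring and the threshold.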

Additional observations from a re-analysis of the deposited data

How the results depend on the processing

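Under each of the 7 alternatives, all planned, 0 of the members that carried an adjusted p were called (27 of them with a mean of at least 100, 31 with a mean of at least 10, 37 over every gene with a p and 32 otherwise), and the smallest adjusted p of a member lay between 0.514 (genes with a mean of at least 100) and 0.907 (every gene with a p). Centred on the median of tested genes, the estimates of Nr1h2 and Med1 turned to -0.0020 and -0.0046, far inside their errors; the other members kept their sign. With a t distribution of 11 degrees of freedom in place of the normal, 38 genes were called in all in place of 292, 7 higher and 31 lower. That setting left 1 called gene each among LXR, LRH-1 and HNF4A targets, and 0 in the other coregulator, FXR, PPAR, retinoid, sterol and bile acid enzyme, hepatocyte, adipocyte and red blood cell lists. Adjusted over every gene with a p, 0 were called among PPAR targets, adipocyte and red blood cell genes. With a mean of at least 10 or at least 100 the adipocyte count was 0 by construction. Cfd, at a mean of 9.36 normalized counts, was left out there, so those settings do not test its call. PPAR targets had 2 calls with a mean of at least 10, among protein coding genes and at an adjusted p under 0.1. At the last of these settings 132 genes in all were higher in place of 78. Beside Fabp1, the PPAR target called there was Fgf21, whose estimate was a rise, at 2.14-fold. Its adjusted p in the authors' deposited table was 0.0505, so it just missed the main threshold. The PPAR calls under those settings were therefore not all falls. No paired analysis was possible because the table holds no values per sample, which also kept single livers from being left out in turn. Counts were low for Nr2f1, Nr4a1 and the 5 members without an adjusted p; Nr4a1 also had the largest spread between livers of the tested members.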
